A study of Mus musculus with 3 samples.

Results

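The tumour necrosis factor (TNF) superfamily, its receptors and the NF-kB signalling genes were described in sorted mature medullary thymic epithelial cells of 3 mouse genotypes. The set took every gene on the array whose symbol follows the Tnfsf or Tnfrsf numbering and 20 listed ligands, receptors, adaptors, kinases, NF-kB subunits and inhibitors. This gave 46 genes out of 19937 with a single-symbol probe set, 29 by their numbering and 17 from the list. The other 3 listed genes, Traf3, Chuk and Nfkb1, were not analysed here, and neither was 1 probe set shared by Tnfsf12 and Tnfsf13.

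The AireKO library came from Aire-null mice, the Sirt1cKO library from Sirt1fl/fl mice carrying Foxn1-Cre, a recombinase driven by a thymic epithelial promoter, and the WT library from Sirt1fl/fl mice without Cre. All mice were 6 weeks old and of the strain labelled C57b/6, and cells were sorted as EpCAM+, CD45-, Ly51low and MHC-II high from pools of typically 3 animals. Each genotype has 1 array, so no test is possible, and each difference below sets 1 library against another. The animals within a pool cannot be separated, and so few arrays limit the precision. The description fields of the 2 knockout samples name each other's genotype; titles and genotype fields were followed here.

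Ligands of the TNF superfamily are made as trimers that cluster their receptors, and the receptor tails recruit TRAF adaptors that feed 2 routes to NF-kB. The canonical route uses the kinase Ikbkb to release Rela and Rel dimers from inhibitors such as Nfkbia. The alternative route uses the kinase Map3k14, also called NIK, to trigger processing of the Nfkb2 precursor into a partner of Relb. In the thymus, RANK (Tnfrsf11a), CD40 and the lymphotoxin beta receptor on epithelial cells receive ligands from thymocytes and lymphoid tissue inducer cells, and mice without Relb lack a normal medulla.

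Levels are log2 intensities of a gene's brightest probe set. A level was held to be within background when it did not exceed the 95th percentile of 1027 olfactory receptor genes in its library, which lay at 6.89 in AireKO, 6.34 in Sirt1cKO and 6.02 in WT. Genes whose highest level reached 6.81, the median of all values, are called measured, and there were 12556 of them. Of the 46 members 39 were measured, 36 were above background in all 3 libraries, 6 in some of them and 4 in none. Probe sets differ in response, so levels are compared within a gene and not between genes.

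The array gave no check of the genotypes. Aire stood at 11.55 in AireKO, 11.24 in Sirt1cKO and 11.97 in WT, and Sirt1 at 11.42, 11.27 and 11.40 in the same libraries, and their probe sets need not cover the deleted part. Each library is therefore called by its label. Xist stood at 6.75 in AireKO, within background, 11.46 in Sirt1cKO and 12.17 in WT, while the Y-linked Eif2s3y stood at 9.75, 8.92 and 4.23. These genes differ between the libraries as they do between the sexes. Genotype therefore cannot be told apart from the sex of the pooled animals, for any gene, sex-linked or not. The MHC class II gene H2-Ea, which C57BL/6 mice do not express and RefSeq lists as a pseudogene on their genome, stood at 13.23 in AireKO, against 5.90 in Sirt1cKO and 5.60 in WT. The AireKO library thus goes against its strain label at the MHC, and there genotype cannot be told apart from a difference in strain. The members Tnf, Lta and Ltb lie in the MHC, and Tnfrsf21 lies on the same chromosome. This is not a full list of the members and pathway genes on that chromosome. How far the difference in strain reaches beyond the MHC was not tested. All 13 markers of mature medullary epithelium, Aire, Cd80 and MHC class II genes among them, were above background in all 3 libraries. Their summed intensities were 46360 in AireKO, 49596 in Sirt1cKO and 60944 in WT. Among the brightest in this sum were the MHC genes H2-Aa and H2-Ab1, at 13.05 and 12.64 in AireKO against 13.70 and 13.58 in WT. In AireKO 10 of the 13, or 76.9%, were below WT, beside 63.7% of all measured genes, and 3 were above it. Krt5, Cldn3 and Cldn4, or 23.1%, were at least 2-fold lower, beside 8.46% of all measured genes. Cd80 and Cd86 were 1.69-fold and 1.63-fold higher. The list median was -0.52 in AireKO and -0.28 in Sirt1cKO. Of 7 neutrophil markers, 3 were above background in AireKO, 6 in Sirt1cKO and all 7 in WT, with summed intensities of 912, 2216 and 4492. In AireKO the neutrophil genes Ly6g, Mpo, Ngp and Elane were within background. Elane, at 6.55 there, was still brighter than in WT, at 6.15, where the background limit is lower. Of 9 dendritic cell and macrophage markers, 5, 8 and 9 were above background, with summed intensities of 3403, 3834 and 5743 in AireKO, Sirt1cKO and WT. Lyz2, the brightest of them, led this sum at 10.76, 11.26 and 12.06, whereas Cd68 ran the other way at 9.82, 9.31 and 9.14. Of the 7 measured, 4 or 57.1% were below WT in AireKO, beside 63.7% of all measured genes, and 3 were above it. Itgax and Siglech were brighter in AireKO than in WT, yet within background only in AireKO, whose limit is highest. Thymocyte markers summed to 1811, 1831 and 1417, with 6 of 11 above background in AireKO and 7 in each of the other libraries, and B cell markers to 942, 887 and 928. Innate lymphoid markers summed to 1952, 1431 and 1572, and stromal markers to 888, 874 and 1017. The part of these marker levels in the results was not tested.

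**Figure D1:**
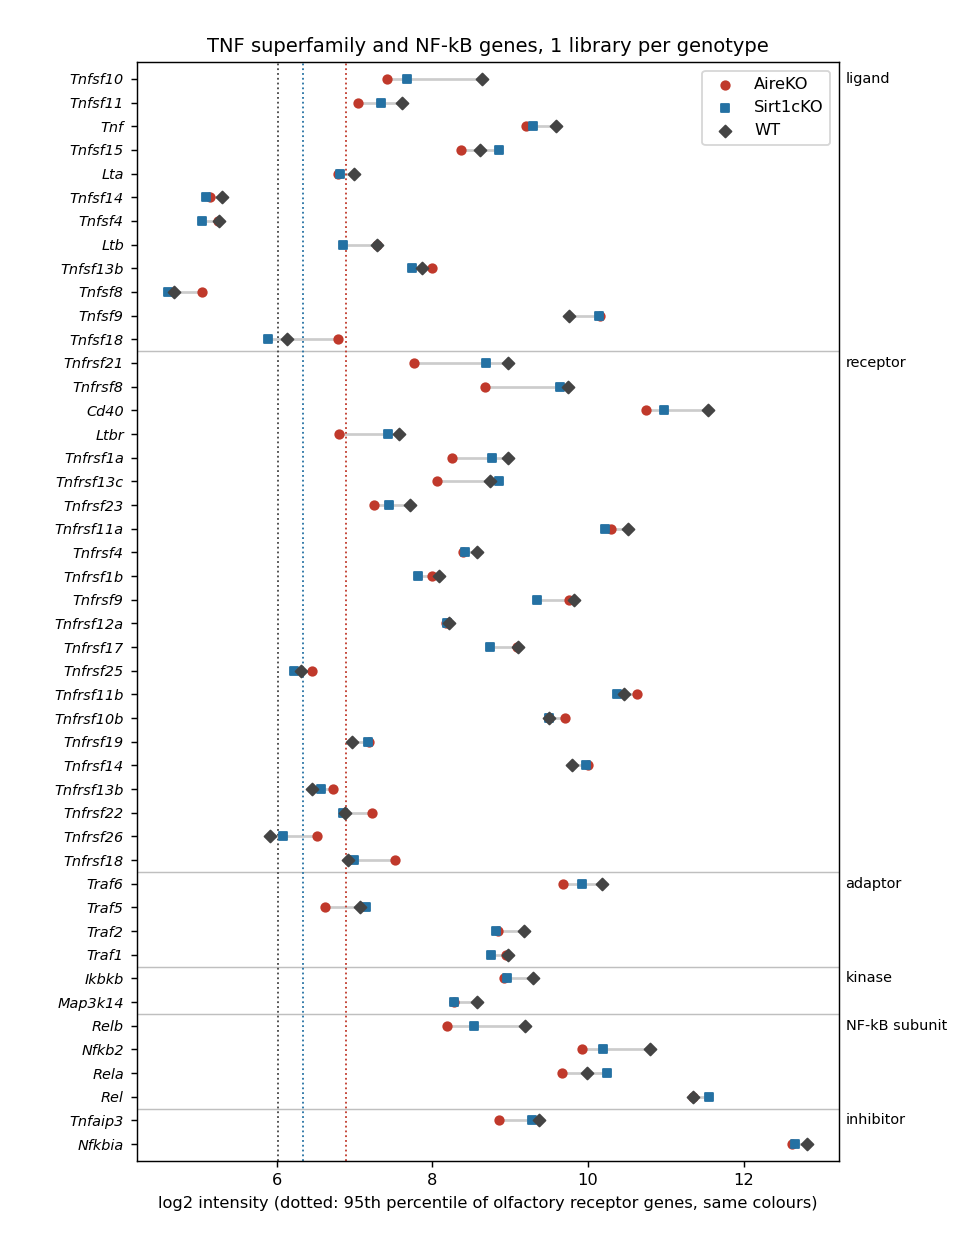
Log2 intensity (x axis) of all 46 members in the AireKO (circles), Sirt1cKO (squares) and WT (diamonds) libraries, grouped by role. Dotted lines mark the background of each library, at 6.89 in AireKO, 6.34 in Sirt1cKO and 6.02 in WT; the ligands Tnfsf4, Tnfsf8 and Tnfsf14 lie left of all 3 lines.

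The first question was how these genes stood in the AireKO library against WT. The death ligand gene Tnfsf10, the receptor genes Tnfrsf21 and Tnfrsf8 and the NF-kB subunit gene Relb were at least 2-fold lower in AireKO, and no member was 2-fold higher. Nfkb2, Cd40, Ltbr, Tnfrsf1a and Tnfrsf13c followed at more than 1.5-fold lower, and the receptor gene Tnfrsf18 was 1.52-fold higher. RANK, the receptor most closely tied to this cell type, was nearly level between the libraries. The summed intensities of the mature medullary, neutrophil and macrophage markers given above were also lowest in AireKO. The medullary sum includes the MHC genes H2-Aa and H2-Ab1, where genotype cannot be told apart from strain. The stromal sum of AireKO lay between those of Sirt1cKO and WT. Its thymocyte sum was above WT, and the innate lymphoid and B cell sums were highest in AireKO. Single markers such as Cd80, Cd86 and Cd68 were higher there than in WT. In bulk RNA, fewer cells of a type and less RNA per cell cannot be told apart.

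The count of 4 in 39 measured members is 10.3%, and the share over all measured genes was 8.46%. On the higher side it was 0 of 39, against 2.68% of all measured genes. At 1.5-fold, 9 members or 23.1% were lower, against 23.6% of all measured genes, and 1 was higher, against 8.52%. The share of lower members was thus near that of the array as a whole. The median difference of the members was -0.24 in AireKO, beside -0.19 over all measured genes, and 29 members, or 74.4%, were below WT, beside 63.7% of all genes. Setting the median difference of all measured genes to 0 left a median of -0.06 for the members.

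The second question was how they stood in the Sirt1cKO library against WT, which is the same WT library as above. No member was 2-fold lower, where 1.68% of all measured genes were, and none was 2-fold higher, where 0.804% were. Tnfsf10 came closest, at 1.95-fold lower, followed by Relb at 1.58-fold and Nfkb2 at 1.51-fold lower. These are the 3 members past 1.5-fold, or 7.69%, against 8.27% of all measured genes, and 0 members were 1.5-fold higher, against 4.01%. The median difference of the members was -0.18, beside -0.07 over all measured genes, and 30 of 39, or 76.9%, were below WT, beside 58.4%. Of the 39, 35 or 89.7% lay within 0.5 of WT on the log2 scale in Sirt1cKO, beside 82.3% of all measured genes. In AireKO 26 or 66.7% did, beside 61.0%.

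**Figure D2:**
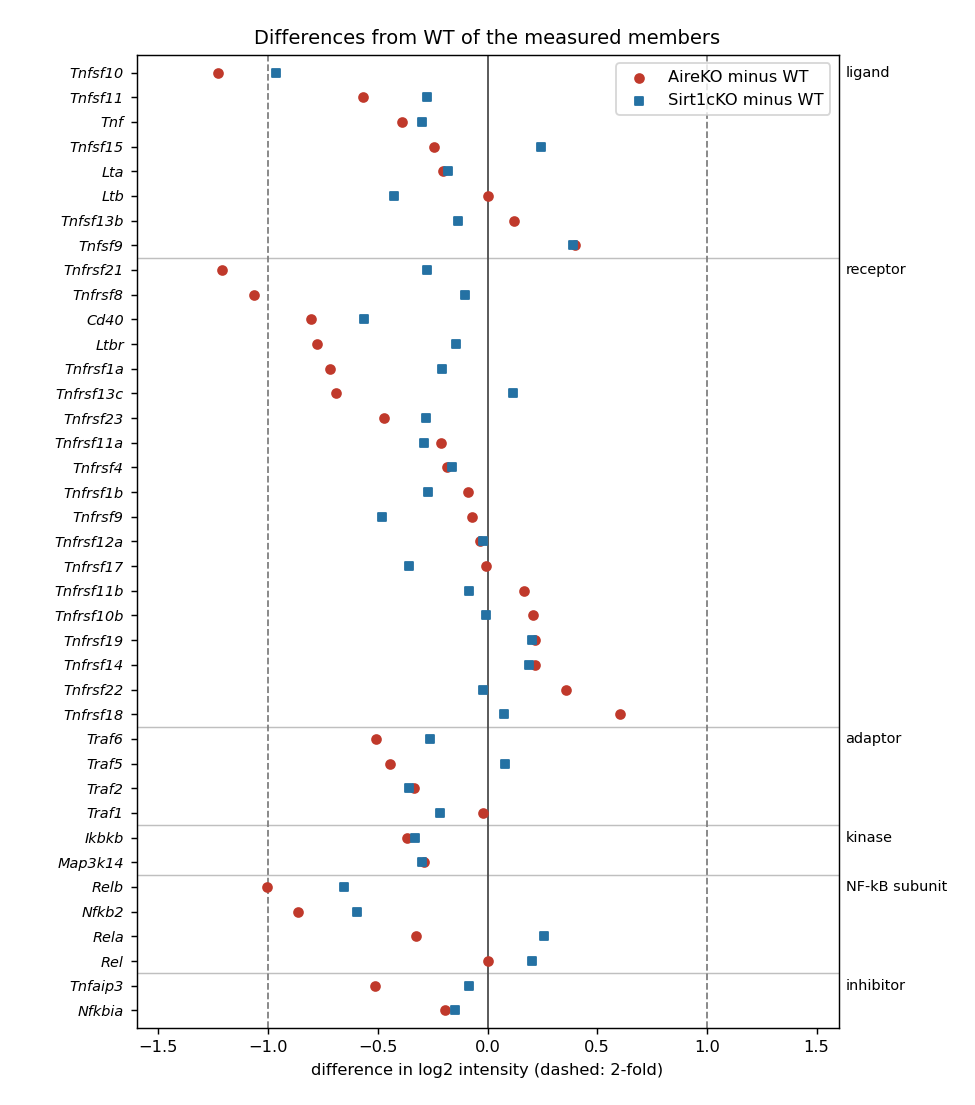
Difference in log2 intensity from WT (x axis) of the 39 measured members in AireKO (circles) and Sirt1cKO (squares), grouped by role; dashed lines mark 2-fold. Tnfsf10, Tnfrsf21, Tnfrsf8 and Relb reach the lower line in AireKO, no member reaches it in Sirt1cKO, and the highest value is 0.60 for Tnfrsf18 in AireKO.

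**Figure D3:**
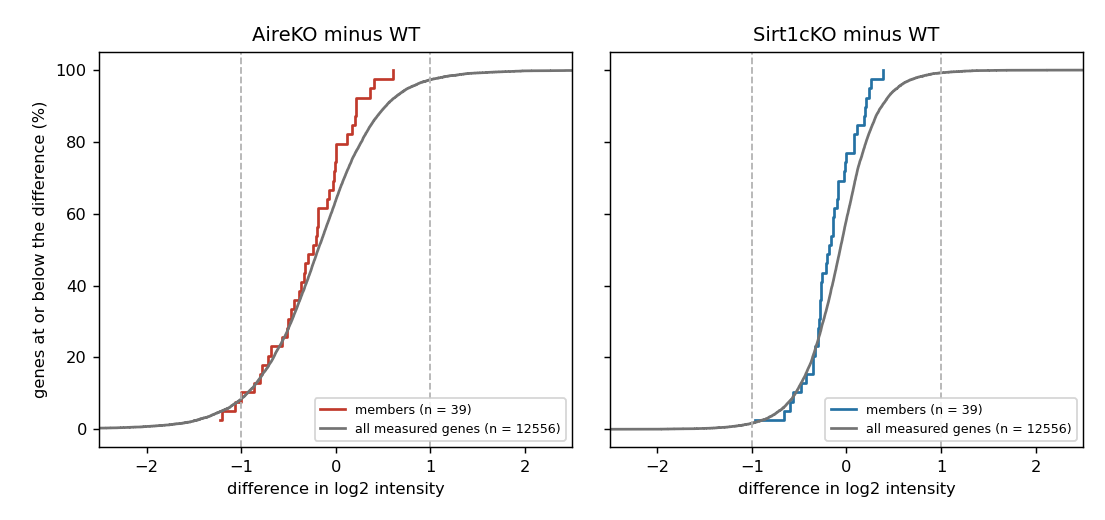
Cumulative share of genes (y axis, percent) at or below a difference in log2 intensity (x axis) for the 39 measured members (coloured) and all 12556 measured genes (grey), in AireKO minus WT and Sirt1cKO minus WT. At the lower 2-fold line in AireKO the shares are 10.3% and 8.46%. The members lie between -1.23 and 0.60 in AireKO and between -0.96 and 0.39 in Sirt1cKO, and the grey curves extend further on both sides.

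Among the ligands 8 of 12 were measured. Tnfsf10 encodes TRAIL, which triggers apoptosis through death receptors and is an interferon-induced gene in many cells. It stood at 7.41 in AireKO, 7.68 in Sirt1cKO and 8.64 in WT, so both knockout libraries were lower, by 2.34-fold in AireKO and 1.95-fold in Sirt1cKO. Its difference of -1.23 in AireKO lay at percentile 4.83 of all measured genes, and that of -0.96 in Sirt1cKO at percentile 1.93. Tnfsf11 encodes RANKL, the ligand of RANK, which in the thymus comes mainly from lymphoid cells. Its levels were 7.05 in AireKO, 7.34 in Sirt1cKO and 7.61 in WT, which is 1.48-fold lower in AireKO and 1.21-fold lower in Sirt1cKO.

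Tnf itself, the ligand of both TNF receptors, stood at 9.20 in AireKO, 9.29 in Sirt1cKO and 9.59 in WT. The lymphotoxin genes, whose products bind the lymphotoxin beta receptor, lay close to background. Lta stood at 6.79 in AireKO, within background there, against 6.81 in Sirt1cKO and 6.99 in WT. Ltb had identical values in AireKO and WT, at 7.28, and 6.85 in Sirt1cKO, a difference of -0.43 between Sirt1cKO and WT. It was the 1 measured gene on the array with equal values in AireKO and WT.

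Tnfsf9, the ligand of the costimulatory receptor 4-1BB, was higher in both knockout libraries, at 10.15 in AireKO and 10.14 in Sirt1cKO, against 9.75 in WT. The 1.32-fold and 1.31-fold differences are below the 1.5-fold mark. Tnfsf13b, which encodes the B cell survival factor BAFF and is a target of the alternative NF-kB route, stood at 7.99, 7.73 and 7.87 in AireKO, Sirt1cKO and WT. Tnfsf15, a ligand of the death-domain receptor gene Tnfrsf25, stood at 8.37, 8.85 and 8.61, with AireKO below WT and Sirt1cKO above it. These differences of -0.24 and 0.24 lay at percentiles 45.7 and 82.6 of all measured genes. Tnfsf4, Tnfsf8 and Tnfsf14, which are costimulatory ligands of lymphoid and antigen-presenting cells, were within background in all 3 libraries. Tnfsf18, the ligand of the receptor GITR, stood at 6.79 in AireKO, 5.88 in Sirt1cKO and 6.13 in WT. It was above background only in WT, where the limit is lowest, although its level was highest in AireKO.

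Among the receptors 19 of 22 were measured. RANK, encoded by Tnfrsf11a, is needed for the formation of Aire-expressing medullary cells. It stood at 10.30 in AireKO, 10.22 in Sirt1cKO and 10.51 in WT, differences of -0.21 and -0.29 that lay at percentiles 48.2 and 25.9 of all measured genes. Its decoy Tnfrsf11b, osteoprotegerin, binds RANKL and keeps it from RANK. This gene stood at 10.63, 10.38 and 10.46 in AireKO, Sirt1cKO and WT, so AireKO was 1.12-fold higher and Sirt1cKO 1.06-fold lower.

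Cd40 acts with RANK in the maturation of medullary cells. Its level was 10.74 in AireKO, 10.98 in Sirt1cKO and 11.55 in WT, 1.75-fold lower in AireKO and 1.48-fold lower in Sirt1cKO. The lymphotoxin beta receptor gene Ltbr stood at 6.80 in AireKO, within background, 7.43 in Sirt1cKO and 7.57 in WT. It was therefore at least 1.61-fold lower in AireKO than in WT, and 1.11-fold lower in Sirt1cKO. Of these 3 receptors for medullary growth, Cd40 and Ltbr were lower in AireKO under all 6 treatments of the values shown in the plot of scalings.

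Tnfrsf21, or death receptor 6, is a death-domain receptor with roles in neurons and lymphocytes. It stood at 7.76 in AireKO, 8.69 in Sirt1cKO and 8.97 in WT, so AireKO alone stood apart, 2.31-fold below WT and 1.91-fold below Sirt1cKO. Tnfrsf8 encodes CD30, a receptor of activated lymphocytes that signals through TRAF adaptors. Its levels were 8.68, 9.64 and 9.75, again with AireKO alone apart, 2.09-fold below WT and 1.95-fold below Sirt1cKO. The death-domain receptor gene Tnfrsf1a, the main receptor of TNF on epithelium, stood at 8.25, 8.76 and 8.97, which is 1.65-fold lower in AireKO and 1.15-fold lower in Sirt1cKO. The second TNF receptor gene, Tnfrsf1b, stood at 7.99, 7.81 and 8.08 and differed by at most 1.21-fold from WT.

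Tnfrsf13c, the BAFF receptor gene of B cells, stood at 8.05 in AireKO, 8.86 in Sirt1cKO and 8.75 in WT, 1.61-fold lower in AireKO than in WT. The B cell marker Cd79b stood at 9.39, 9.40 and 9.49, while Cd79a was within background in each library. Tnfrsf17, which encodes the plasma cell receptor BCMA, stood at 9.09, 8.74 and 9.10, with Sirt1cKO the lowest. Tnfrsf9, the receptor 4-1BB of activated T cells, stood at 9.75, 9.34 and 9.82, 1.39-fold lower in Sirt1cKO than in WT.

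The highest difference from WT among the 39 measured members belonged to Tnfrsf18, which encodes GITR, a receptor of regulatory T cells. It stood at 7.52 in AireKO, 6.99 in Sirt1cKO and 6.92 in WT. The decoy TRAIL receptor gene Tnfrsf22 stood at 7.23, 6.85 and 6.87, 1.28-fold higher in AireKO, whereas its close relative Tnfrsf23 stood at 7.24, 7.44 and 7.72, 1.39-fold lower. Tnfrsf10b, the signalling TRAIL receptor of the mouse, stood at 9.71, 9.5 and 9.5, so it was slightly higher in AireKO, the library in which the ligand gene Tnfsf10 had its lowest level.

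The remaining receptors showed small differences. Tnfrsf14 (HVEM), Tnfrsf19 (TROY), Tnfrsf12a (the TWEAK receptor) and Tnfrsf4 (OX40) had differences from WT between -0.19 and 0.22. Tnfrsf13b, Tnfrsf25 and Tnfrsf26 did not reach the measured level, and Tnfrsf26 was within background in all 3 libraries. The receptor median was -0.09 in AireKO, which became 0.05 after quantile normalization, 0.07 after loess and 0.18 after median centring, so no direction is given for receptors as a group in that library. In Sirt1cKO it was -0.15, and -0.05 after median centring.

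All 4 TRAF adaptors and both kinases were measured, and none was 1.5-fold different from WT. Over all measured genes 23.6% were 1.5-fold lower and 8.52% higher in AireKO, and 8.27% and 4.01% in Sirt1cKO. Traf6, which couples RANK and CD40 to the canonical route and is needed for a normal medulla, stood at 9.68 in AireKO, 9.92 in Sirt1cKO and 10.18 in WT. Traf2, which with Traf3 keeps Map3k14 low in resting cells, stood at 8.84, 8.82 and 9.17. Traf1, itself a gene induced by NF-kB, stood at 8.95, 8.76 and 8.97.

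Traf5, which serves CD40 and related receptors, stood at 6.62 in AireKO, within background, 7.15 in Sirt1cKO and 7.07 in WT, so it was at least 1.13-fold lower in AireKO than in WT. Map3k14 stood at 8.28, 8.27 and 8.57, which makes it 1.22-fold lower in AireKO and 1.23-fold lower in Sirt1cKO. Ikbkb, the kinase that marks the inhibitors for degradation, stood at 8.92, 8.96 and 9.29, 1.29-fold and 1.26-fold lower. Both kinases were below WT in both knockout libraries under all 6 treatments of the values. Their median was -0.33 in AireKO and -0.31 in Sirt1cKO as deposited, -0.14 and -0.25 after quantile normalization, and -0.059 and -0.22 after median centring.

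Of the 4 NF-kB subunits 3 were below WT in AireKO and 2 in Sirt1cKO. That is 75% and 50%, beside 63.7% and 58.4% of all measured genes. Relb and Nfkb2, the subunits of the alternative route, were below WT in both knockout libraries. Relb stood at 8.19 in AireKO, 8.53 in Sirt1cKO and 9.19 in WT, or 2.01-fold and 1.58-fold lower, just past the 2-fold mark in AireKO. Nfkb2 stood at 9.93, 10.20 and 10.79, or 1.82-fold and 1.51-fold lower. Their differences lay at percentiles 8.32 and 12 of all measured genes in AireKO, and 6.28 and 8.0 in Sirt1cKO.

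Rela and Rel are the activating subunits of the canonical route. Rela stood at 9.66 in AireKO, 10.25 in Sirt1cKO and 9.99 in WT. It differed from WT by -0.33 in AireKO and by 0.26 in Sirt1cKO, so the knockout libraries lay on opposite sides of WT. Rel stood at 11.35 in AireKO, 11.55 in Sirt1cKO and 11.35 in WT, 1.00-fold and 1.15-fold of WT. With the median difference of all genes set to 0 in each comparison, Relb differed by -0.82 in AireKO and -0.59 in Sirt1cKO, and Nfkb2 by -0.68 and -0.53.

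The inhibitors Nfkbia and Tnfaip3 are induced by NF-kB and shut it off, Nfkbia by holding dimers in the cytoplasm and Tnfaip3, called A20, by editing ubiquitin chains on upstream adaptors. Nfkbia stood at 12.62 in AireKO, 12.66 in Sirt1cKO and 12.81 in WT, within 1.14-fold of WT in both. Tnfaip3 stood at 8.86, 9.28 and 9.37, 1.43-fold lower in AireKO and 1.06-fold lower in Sirt1cKO.

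Promoter windows of 250 bases before to 50 after the gene start are shown for these feedback genes, for Nfkb2, which is also a target of its own pathway, and for Tnfsf10 and Tnfrsf21, which differed most from WT. They are from RefSeq on GRCm38.p6, where 37 of the 46 members have a window. Tnfaip3 has 2 windows there and Nfkb2 has 3, and only the first of each is shown. Capitals mark matches on either strand to GGGNNNTTCC, a kappaB-like motif.
Nfkbia (chr12:55492598-55492897, minus strand): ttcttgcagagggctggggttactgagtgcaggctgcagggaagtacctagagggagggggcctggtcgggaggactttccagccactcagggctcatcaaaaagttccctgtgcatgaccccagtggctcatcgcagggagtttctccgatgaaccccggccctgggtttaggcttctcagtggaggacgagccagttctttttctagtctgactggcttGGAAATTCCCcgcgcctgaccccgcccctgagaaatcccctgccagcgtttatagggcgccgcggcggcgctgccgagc
Tnfaip3 (chr10:19015361-19015660, minus strand): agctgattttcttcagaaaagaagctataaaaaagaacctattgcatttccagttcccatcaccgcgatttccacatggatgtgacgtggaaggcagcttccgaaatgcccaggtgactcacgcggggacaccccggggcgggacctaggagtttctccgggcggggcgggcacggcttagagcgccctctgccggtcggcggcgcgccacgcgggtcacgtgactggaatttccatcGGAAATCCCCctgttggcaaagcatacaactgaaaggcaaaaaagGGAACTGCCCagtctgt
Nfkb2 (chr19:46304487-46304786, plus strand): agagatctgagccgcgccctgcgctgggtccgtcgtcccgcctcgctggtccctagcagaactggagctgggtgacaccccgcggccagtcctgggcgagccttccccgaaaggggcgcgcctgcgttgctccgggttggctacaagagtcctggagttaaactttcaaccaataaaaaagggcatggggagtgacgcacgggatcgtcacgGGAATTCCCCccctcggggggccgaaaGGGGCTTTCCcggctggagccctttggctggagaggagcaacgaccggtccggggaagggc
Tnfsf10 (chr3:27316827-27317126, plus strand): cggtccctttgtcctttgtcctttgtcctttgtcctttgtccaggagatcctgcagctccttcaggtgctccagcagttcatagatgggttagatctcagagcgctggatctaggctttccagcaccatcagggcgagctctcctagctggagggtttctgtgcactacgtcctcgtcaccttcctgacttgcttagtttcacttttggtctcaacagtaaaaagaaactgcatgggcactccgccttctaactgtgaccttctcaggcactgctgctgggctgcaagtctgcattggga
Tnfrsf21 (chr17:43016305-43016604, plus strand): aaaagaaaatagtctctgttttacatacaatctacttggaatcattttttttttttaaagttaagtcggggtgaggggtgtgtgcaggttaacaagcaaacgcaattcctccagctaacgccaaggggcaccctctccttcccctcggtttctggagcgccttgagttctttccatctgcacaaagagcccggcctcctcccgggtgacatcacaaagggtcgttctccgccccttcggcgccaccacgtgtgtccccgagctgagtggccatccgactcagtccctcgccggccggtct

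The Nfkbia window held 1 match, GGGAATTTCC on the opposite strand, starting 29 bases before the gene start. In the Tnfaip3 window shown there were 2 matches that do not overlap, GGGGATTTCC and GGGCAGTTCC, both on the opposite strand. The Nfkb2 window shown held GGGGAATTCC on the opposite and GGGGCTTTCC on the same strand. The windows of Tnfsf10, Tnfrsf21 and Tnfrsf8 held no match, which says only that these letters are not there.

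Of the 37 members with a window, 9 or 24.3% held the motif in at least 1 window, beside 6.31% of 27025 genes in the table. They were Ltb, Nfkb2, Nfkbia, Rel, Tnfaip3, Tnfrsf25, Tnfrsf9, Traf2 and Traf5. Members with and without it had like differences. The 8 measured members with the motif had a median of -0.26 in AireKO, and the 24 measured members with a window but no match had -0.27. In Sirt1cKO the medians were -0.25 and -0.19.

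Other genes of the pathway were read from lists that were chosen with earlier results of these data known. Of the further genes of the NF-kB inhibitor family, the atypical ones included, 5 of 6 measured were below WT in AireKO. That is 83.3%, beside 63.7% of all measured genes. Among the 6 measured, 3 were at least 2-fold lower in AireKO and 0 in Sirt1cKO, beside 8.46% and 1.68% of all measured genes. The medians were -1.07 and -0.53, beside -0.19 and -0.07 over all measured genes. The summed intensity of the neutrophil markers, at 912 in AireKO, 2216 in Sirt1cKO and 4492 in WT, ran in the same order. So did the sum of the dendritic cell and macrophage markers, at 3403, 3834 and 5743, led by Lyz2, while Cd68 ran the other way. Among the neutrophil genes S100a9 was highest in Sirt1cKO, Camp was lowest there and Elane ran the other way. The part of these markers in the inhibitor family values was not tested. Nfkbie, which holds Rel and Rela dimers, stood at 8.99 in AireKO, 9.75 in Sirt1cKO and 10.41 in WT, 2.67-fold and 1.57-fold lower. Nfkbib, a second cytoplasmic inhibitor, stood at 9.48, 10.13 and 10.79, 2.48-fold and 1.58-fold lower. Bcl3, a nuclear family member that binds subunit dimers, stood at 8.05, 8.97 and 9.23, 2.27-fold and 1.20-fold lower. For each of these 3 genes AireKO was the lowest library and Sirt1cKO lay between it and WT. In AireKO 2 or 3 of the 6 stayed 2-fold lower under each of the other scalings and the background bound, with medians between -1.07 and -0.80.

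Of 23 measured adaptors and regulators outside the set, 2 were at least 2-fold lower in AireKO and 0 in Sirt1cKO, or 8.70% and 0%, beside 8.46% and 1.68% of all measured genes. Ikbke, a kinase of antiviral signalling, stood at 7.72 in AireKO, 8.25 in Sirt1cKO and 8.78 in WT. Rbck1, a subunit of the linear ubiquitin ligase that acts at TNF receptors, stood at 8.73, 9.31 and 9.78. Casp8, the caspase that death receptors activate, stood at 10.49 in AireKO, 11.50 in Sirt1cKO and 10.75 in WT. It was the 1 gene of this list at least 2-fold lower in AireKO than in Sirt1cKO, or 4.35%, beside 2.72%.

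Canonical NF-kB target genes lay on both sides of WT, with 13 of 21 below it in AireKO and 13 in Sirt1cKO, or 61.9% in each, beside 63.7% and 58.4% of all measured genes. Of 21 measured, 3 were at least 2-fold lower in AireKO and 1 in Sirt1cKO. That is 14.3% and 4.76%, beside 8.46% and 1.68% of all measured genes. None was 2-fold higher in either, beside 2.68% and 0.804%. Gadd45b, a stress-response gene that limits JNK signalling, was lower in both, at 10.14 in AireKO and 10.71 in Sirt1cKO, against 11.76 in WT. The chemokine gene Ccl5 stood at 11.13 in AireKO and Cxcl2 at 10.12, against 12.18 and 11.17 in WT. The monocyte chemokine gene Ccl2 stood at 10.43 in AireKO and 10.26 in Sirt1cKO, against 9.6 in WT, or 1.78-fold and 1.57-fold higher. The interferon-induced chemokine gene Cxcl10 stood at 13.46 and 13.49, against 13.01 in WT, or 1.36-fold and 1.39-fold higher. The list's median was -0.24 in AireKO, and it became -0.05 after quantile normalization and 0.03 after median centring, so no direction is given for the list.

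Among 8 measured genes tied to the alternative route or to mature medullary cells, 2 were at least 2-fold lower in AireKO and 1 higher. Over all measured genes the shares were 8.46% and 2.68%. In Sirt1cKO none was 2-fold lower or higher, beside 1.68% and 0.804%. Ccl22, a chemokine for regulatory T cells and thymocytes, stood at 9.19 in AireKO, 10.66 in Sirt1cKO and 10.77 in WT. Ccl19, a chemokine for maturing thymocytes, stood at 12.32, 13.00 and 13.33, and Glycam1, an endothelial mucin gene, at 7.43, 6.58 and 6.27. Ccl22 was also at least 2-fold lower in AireKO than in Sirt1cKO, as were 2.72% of all measured genes. None of the 8 measured superfamily genes that carry other names, such as Fas and Cd70, was 2-fold different from WT in either library. Over all measured genes 8.46% were lower and 2.68% higher in AireKO, and 1.68% and 0.804% in Sirt1cKO.

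**Figure D4:**
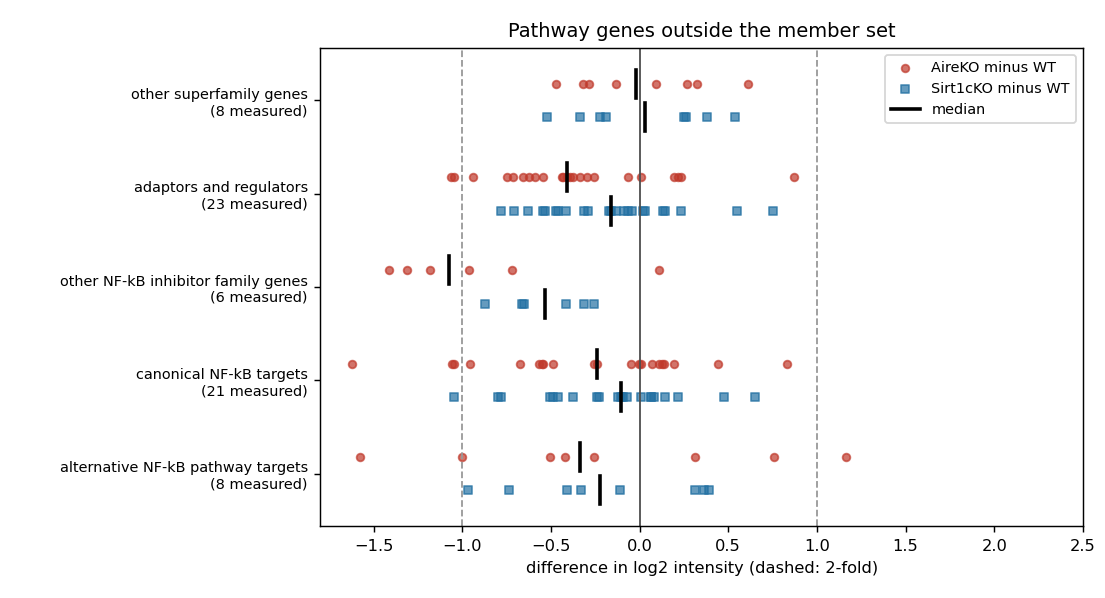
Difference in log2 intensity from WT (x axis) of measured pathway genes outside the 46 members, by list, in AireKO (circles, upper row of each list) and Sirt1cKO (squares, lower row), with the median as a black bar and 2-fold as dashed lines. The inhibitor family has medians of -1.07 in AireKO and -0.53 in Sirt1cKO.

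The knockout libraries were also compared directly. None of the 39 measured members was 2-fold lower in AireKO than in Sirt1cKO, where 2.72% of all measured genes were, and none was 2-fold higher, where 1.04% were. By their deposited values 4 members or 10.3% were more than 1.5-fold lower in AireKO, beside 11.8% of all measured genes. Tnfrsf8, Tnfrsf21 and Tnfrsf13c were above background in both libraries. The fourth, Ltbr, was within background in AireKO and is shown only to be at least 1.46-fold lower, short of that mark. On the higher side 0 members passed 1.5-fold, beside 4.55% of all genes. The median of the members was -0.04. By contrast Relb and Nfkb2 differed by -0.35 and -0.27 between the knockout libraries, and Tnfsf10 by -0.26.

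Among the 39 measured members the AireKO library held the lowest level for 22, or 56.4%, the Sirt1cKO library for 12, or 30.8%, and the WT library for 5, or 12.8%. Over all measured genes these shares were 52.8%, 20.2% and 27.1%.

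The size of the AireKO differences depended on scaling, since the median difference of all measured genes moved by over 0.1 between scalings, from -0.19 as deposited to 0.08 after median centring. Tnfsf10 ranged from -1.23 to -0.96, Tnfrsf21 from -1.21 to -0.94, Tnfrsf8 from -1.07 to -0.80. Relb was 2.01-fold lower as deposited and differed by -0.73 after median centring. All 4 stayed below WT under the 6 treatments of the values that were tried, and Relb and Tnfrsf8 passed 2-fold only as deposited and with dim values set at background. The 4 genes lay below 0 in Sirt1cKO under the same treatments, Tnfrsf8 by as little as -0.01. They were chosen by their distance from this same WT library, and each treatment uses the same arrays. The shared direction is therefore not independent evidence.

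**Figure D5:**
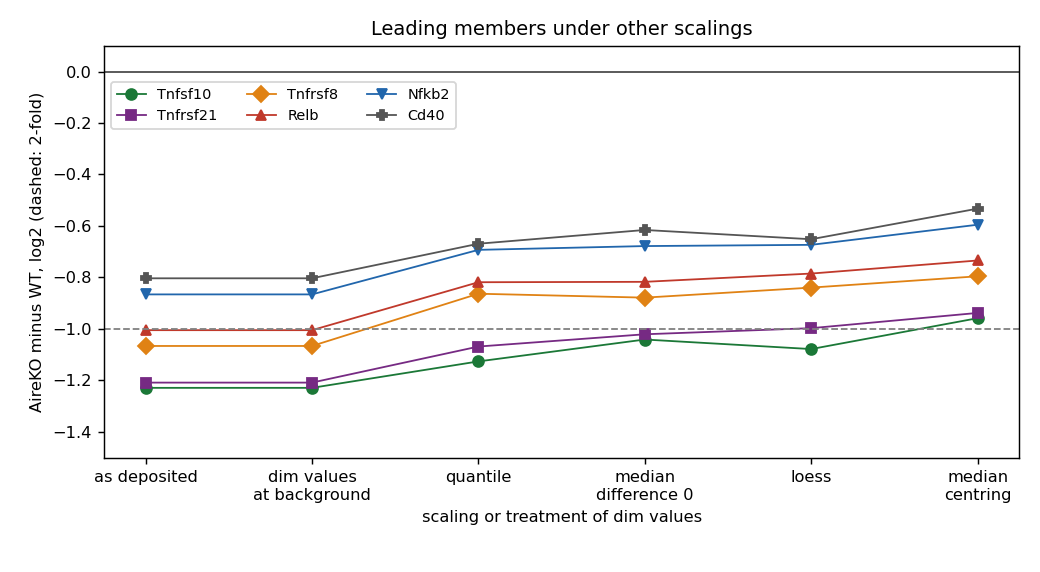
AireKO minus WT difference in log2 intensity (y axis) of 6 members under 6 treatments of the values (x axis); the dashed line marks 2-fold. Tnfsf10 is at -1.23 as deposited and -0.96 after median centring, and all 6 genes stay below 0.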

How the data were processed

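The authors deposited 1 intensity for each of 34760 probe sets in each of 3 libraries. Per the submitters' processing notes RMA was used; its version is not given in the sources used here. The intensities lie on a linear scale, so log2 was taken here, with no further normalization.

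Gene symbols came from the platform's probe table, and probe sets with several symbols were left out. All 46 members had 1 probe set, and all 46 matched a RefSeq gene by Entrez identifier with 0 symbols changed. With 1 library per genotype a gene was called at a 2-fold difference, and a fold against a level within background is given as "at least". The members and gene lists were chosen with earlier results of these data known. Per-library values are given for every member past 2-fold and for the main pathway members.

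Alternatives were quantile normalization, loess (span 0.3), median centring, other filters, the mean of probe sets, 1.5-fold and 3-fold thresholds, bounds at background and exchanged labels. Setting the median difference of all genes to 0 was added after seeing the data. The counting and scaling code was tested on simulated data. Python 3.11.15, numpy 2.4.6, pandas 2.3.3, statsmodels 0.14.6 and matplotlib 3.10.9 were used.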

Additional observations from a re-analysis of the deposited data

How the results depend on the processing

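No paired analysis was possible because each genotype has 1 library, and no library could be left out. In AireKO minus WT the 4 members at least 2-fold lower became 2 after quantile normalization, 1 after loess, 0 after median centring, 2 with the median difference set to 0 (chosen after seeing the data), 9 at 1.5-fold and 0 at 3-fold. The 0 members higher became 1 at 1.5-fold. With the labels exchanged the AireKO count was 0 and the Sirt1cKO count 4. The count of 0 lower became 3 in Sirt1cKO minus WT and 4 in AireKO minus Sirt1cKO at 1.5-fold, where Ltbr passes only by a level within background. The members' median in AireKO minus WT, -0.24 as deposited, became -0.11 after quantile normalization, -0.11 after loess, -0.057 with the median difference set to 0 and 0.026 after median centring. Between the knockout libraries, -0.04 as deposited became 0.012 after loess, 0.14 after median centring, 0.073 with the median difference set to 0 and 0.037 with the labels exchanged. Filters on dim genes and bounds at background left all these counts within 1.5 times and the medians within 0.1. The mean of probe sets could not change them, since all 46 members had 1 probe set. Loess, quantile normalization and centring change the offset between libraries by construction. Dim genes were least resolved in AireKO, whose background was the highest.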
